A study of Mus musculus with 96 samples.

Results

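*Sostdc1* and 9 genes of the BMP and TGF-beta pathways, *Id1*, *Id2*, *Id3*, *Bmp2*, *Bmp7*, *Smad7*, *Tgfb1*, *Tgfb2* and *Tgfbr1*, were followed through single daughter cells of dividing horizontal basal cells (HBCs), which are reserve stem cells in the olfactory epithelium (OE). The 10 genes were taken by symbol from a table of 55487 genes. They were chosen with values of these cells already known, the agreement of *Sostdc1* between daughter cells among them, so their values are described here and not tested. The cells came from wild-type mice of 6 to 8 weeks whose OE had been injured with methimazole and was dissected 2 days later. HBCs were then cultured, with a change of coating from Tropoelastin to Fibronectin, and both daughters of a division were picked by mouth pipette, giving 96 cells in 48 pairs. RNA was measured by G&T-seq, in which poly(A) RNA is captured on beads and amplified, with synthetic ERCC transcripts spiked into each cell. There is 1 condition, no mouse or culture is named for any cell, and the cells are therefore 1 sample without replicates.

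BMPs and TGF-betas are secreted ligands that bind paired type I and type II receptors on the cell surface. BMP receptors mainly phosphorylate Smad1, Smad5 and Smad9, TGF-beta and activin receptors Smad2 and Smad3, and both kinds enter the nucleus with Smad4. In epithelia that rest on basal stem cells these pathways are known for restraining proliferation and guiding differentiation, and they are checked by secreted antagonists outside the cell and by inhibitory Smads inside it.

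Between 29454150 and 44849003 reads per cell fell on genes (median 36152760), and 11403 to 14632 genes were detected. ERCC transcripts took 1.06% to 5.75% of counts. Below, a normalized count is a count divided by the cell's ERCC size factor, and TPM is the deposited value scaled for gene length and library size, the only scale on which genes are compared with each other. The HBC markers *Trp63*, *Krt5* and *Krt14* were counted in all 96 cells. Of 5 globose basal cell markers, the summed count was 0 to 1296 and reached 10 in 7 cells, with *Kit* at 0 in every cell. The summed counts were 0 to 361 for 4 sustentacular markers (10 or more in 5 cells), 0 to 2107 for 4 neuronal markers (16 cells), 0 to 664 for 4 microvillous markers (18 cells), 0 to 618 for 4 ensheathing glia markers (5 cells) and 0 to 2132 for 5 fibroblast markers (9 cells), with *Dcn* and *Lum* at 0 throughout. Of 4 endothelial and immune markers the sum was 0 to 11065 and reached 10 in 61 cells, and *Cdh5* was at 0. *Cd68* had 10 or more counts in 57 of these cells. The part of such cells in the values below was not tested.

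The 10 genes ranged from a transcript in every cell to one in a few pairs. *Id2* and *Bmp7* were counted in all 96 cells, 2 of 10 genes, where 8.35% of all genes and 31.8% of the 14463 genes past a count filter were. The filter asked for 10 counts or more in 10% of cells, and all 10 genes passed it. On the TPM scale *Id2* had the highest median, 104, followed by *Id1* with 54.9, *Bmp7* with 31.8, *Tgfbr1* with 12.7, *Tgfb1* with 1.18 and *Id3* with 0.316, while *Sostdc1*, *Bmp2*, *Tgfb2* and *Smad7* had a median of 0. Neighbours in this order overlapped in their interquartile ranges, which were 53.99 to 204 TPM for *Id2*, 5.05 to 136 for *Id1*, 16.7 to 49.8 for *Bmp7*, 6.12 to 23.1 for *Tgfbr1*, 0.0866 to 8.53 for *Tgfb1* and 0 to 31.2 for *Id3*. Cells held between 3 and 10 of the genes at 10 or more counts, with a median of 6, and the number went with the number of genes detected in the cell (Spearman's rho 0.47 over 96 cells, which share library and depth).

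**Figure D1:**
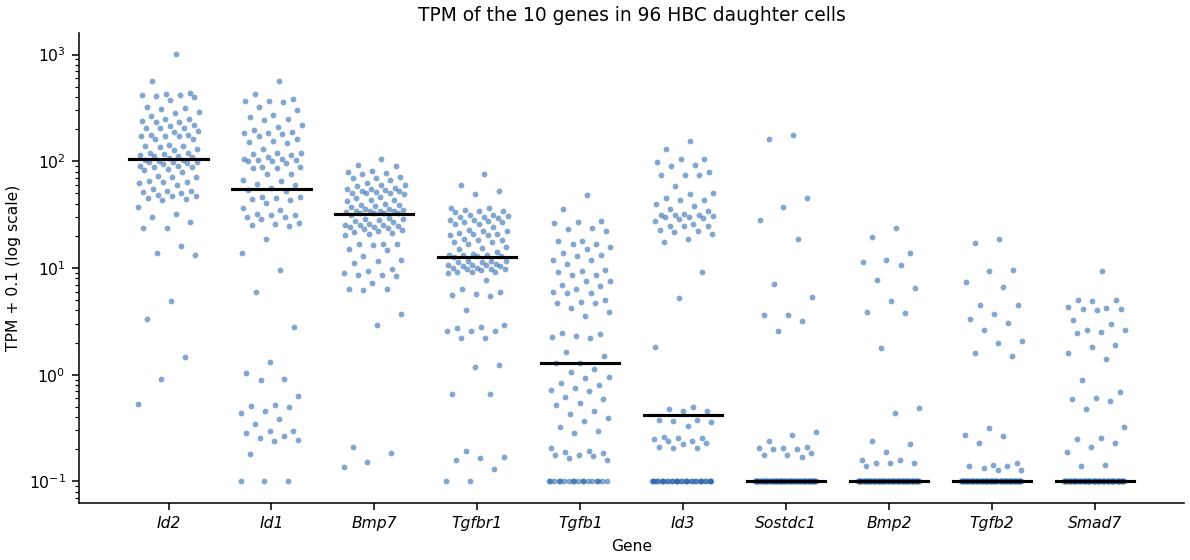
TPM + 0.1 on a log axis for each of the 10 genes in 96 daughter cells (points, jittered sideways), with the median as a bar. *Id2* and *Bmp7* fill a single band apart from a few low cells, *Id1* and *Id3* fall into cells near 0 and cells above 10 TPM, and most cells lie on the floor for *Sostdc1*, *Bmp2*, *Tgfb2* and *Smad7*.

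*Sostdc1* (ENSMUSG00000036169) encodes a secreted antagonist that binds BMPs and also the Wnt co-receptors Lrp5 and Lrp6. It lies on chromosome 12 of GRCm38 from 36314139 to 36318452 on the plus strand, with 2 exons in 1 annotated transcript and a coding sequence for 206 residues.

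*Sostdc1* was present in few cells and, where it was high, in both daughters. At least 1 read was counted in 24 of 96 cells (25%, 95% interval 16.7% to 34.9% by the exact Clopper-Pearson method) and 10 or more counts in 12 cells of 8 pairs, which came from 7 of 12 sets. A set is 8 cells (4 pairs) that share a part of the name under which their data were deposited, and sets were used as possible batches. The other 12 cells with a count had 3 to 8 reads and belonged to 11 pairs. The interval covers counting error only, since the method has no molecular identifiers and PCR copies count as reads. This interval and those given for cells below take cells as independent, although sisters can be alike, so they can be too narrow.

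The daughters of pair 19 had 6588 and 6011 counts, those of pair 39 had 1423 and 1786, those of pair 43 had 719 and 1146, and those of pair 27 had 129 and 263. These are the 4 pairs in which both cells reached 10 counts, and they hold the 7 highest counts of the gene. In pairs 6, 45, 36 and 35 a single daughter reached 10, with 188, 149, 133 and 88 counts, beside 0, 0, 0 and 3 in the sister. No pair had a daughter below 10 beside a sister at 1000 or more. On the ERCC-normalized scale the ratio of the higher to the lower daughter, after adding 1 to each, was 1.09 in pair 19, 1.25 in pair 39, 1.59 in pair 43 and 2.202 in pair 27.

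**Figure D2:**
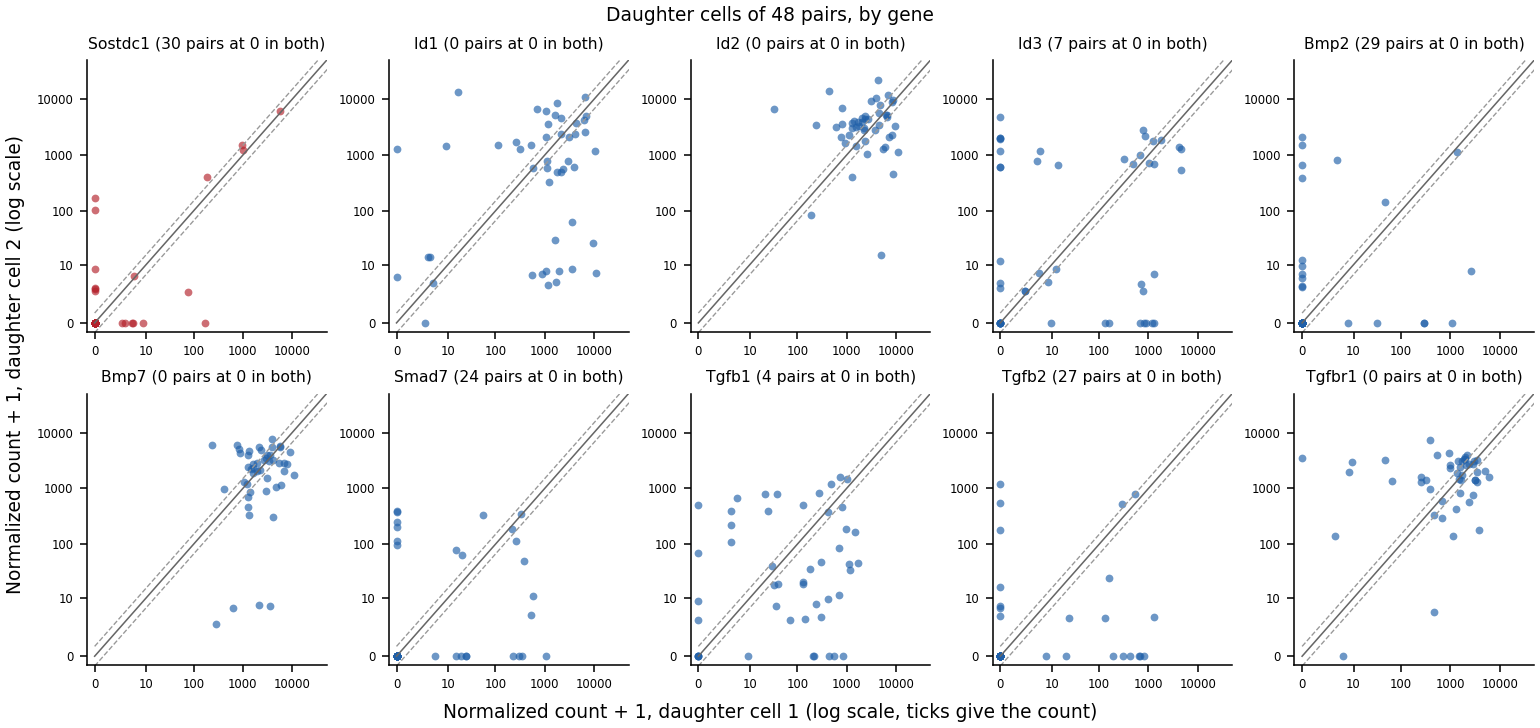
Normalized count + 1 of daughter 1 against daughter 2 on log axes for 48 pairs and each of the 10 genes, with the line of equality (solid) and the 1.5-fold cutoffs (dashed). The *Sostdc1* points above 100 in both daughters lie near the diagonal, with pairs 43 and 27 outside the cutoffs. *Id1*, *Id3* and *Tgfb1* have pairs along both axes.

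The intraclass correlation, the share of the variance of log2(CPM + 1) that lies between pairs rather than between sisters, was 0.91 for *Sostdc1*, the highest of 14463 genes. It is the only gene at 0.9 or above, 0.00691% of those genes, and it was chosen with this known. The next highest among the 10 genes was *Id3* with 0.21. The value rested on the 4 pairs named above: it was 0.84 without pair 19, and -0.03 without pairs 19, 27, 39 and 43. With the cells centred on their set it was 0.89. After scaling to ERCC it was 0.76 and 25 genes were as high or higher, *Sostdc1* included, and after scaling by the median of ratios over genes it was 0.75. On both of these scales values are of the size of read counts, so the added 1 weighs less than on CPM. With 10 added to CPM in place of 1 the intraclass correlation was 0.98.

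A pair was called asymmetric where the ratio between daughters reached 1.5. *Sostdc1* was asymmetric in 15 of 48 pairs (31.2%, interval 18.7% to 46.2%). In 30 pairs both daughters were at 0, which gives a ratio of 1, and 6 of the 15 asymmetric pairs had a daughter with 10 or more counts. These were pairs 6, 35, 36 and 45, with *Sostdc1* in a single daughter, and pairs 27 and 43, with the gene in both.

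The cells with *Sostdc1* were HBCs by their markers and were otherwise not alike. Pair 19, with 176 and 163 TPM of *Sostdc1*, had the highest *Mki67* of all cells, 400 and 368 TPM, a marker of cycling cells. Its *Krt14*, a basal keratin, was at 233 and 213 TPM and its *Krt6a*, a wound-response keratin, at 37.8 and 62.2, with at most 4.17% and 2.08% of cells lower. *Aqp4*, a water channel, was at 225 and 318 TPM. In pair 27, *Krt14* was at 4453 and 3672 TPM and *Krt6a* at 4921 and 3531, while *Aqp4* was at 264 and 246. *Aqp4* was at 71.8 and 39.8 TPM in pair 39 and at 106 and 90.1 in pair 43. In each of the 12 cells with 10 or more *Sostdc1* counts, at least 48.96% of cells had lower *Aqp4*. *Aqp4* was named with these values in view, and its link to *Sostdc1* was not tested. Of the fibroblast markers, *Col1a1* was at 0 in all 12 cells with 10 or more *Sostdc1* counts, *Dcn* and *Lum* were at 0 in all cells of the series, and *Pdgfra* had 538 counts in daughter 2 of pair 27, 3 in daughter 1 of pair 43 and 0 in the other 10.

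Agreement between sisters in the other genes varied over these 4 pairs. *Id1* was asymmetric in each, with 128 and 1458 counts in pair 19, 477 and 4391 in pair 27, 749 and 2177 in pair 39 and 7984 and 881 in pair 43. *Id3* had 912 and 0 counts in pair 19 and 836 and 0 in pair 27, and was below 10 in both daughters of pair 39 (3 and 4) and pair 43 (0 and 9). *Bmp7* had a ratio between daughters of 1.06 in pair 19, 1.64 in pair 39 and 2.48 in pair 43, and in pair 27 its counts were 3918 and 3583. Over 96 cells the rho of *Sostdc1* with each of the other 9 genes lay between -0.12 (*Tgfb2*) and 0.12 (*Bmp7*), with a median of 0.01.

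*Sostdc1* stood in a list of 16 extracellular antagonists, of which 7, *Sost*, *Chrdl1*, *Chrdl2*, *Grem1*, *Bmper* and *Cer1* among them, had no count in any cell, which, at 3 cells of 96, allows up to 3.12% of cells with a read but sets no limit on cells that express the gene. *Nog* and *Fstl1* had a count in 1 cell each and *Chrd* in 3. The antagonists found in most cells were *Twsg1*, a BMP-binding protein with a median of 39.6 TPM and a count in all 96 cells, and *Nbl1*, a secreted BMP inhibitor with 26.3 TPM in 88 cells. *Fst*, which binds activins, was in 83 cells (median 2.51 TPM, highest 1214 TPM), and *Fstl3*, a relative of it, was in 61 cells with a median of 7.27. The intraclass correlation of *Fst* was 0.45, that of *Fstl3* 0.32, that of *Twsg1* 0.15 and that of *Nbl1* 0.01.

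Among the ligands, *Bmp7* was broad and *Bmp2* sparse. *Bmp7* (ENSMUSG00000008999, chromosome 2 from 172868012 to 172940321, minus strand) ranged from 4 to 8410 counts around a median of 2520, and 45 of 48 pairs had 10 or more counts in both daughters. In pair 3 the daughters had 2948 and 8 counts, and in pair 42 they had 4075 and 11. *Bmp2* (ENSMUSG00000027358, chromosome 2 from 133552159 to 133562885, plus strand) had a count in 23 cells (24.0%, interval 15.8% to 33.8%) and at most 1750. Of the 14 pairs in which *Bmp2* reached 10 counts, both daughters did so in 2, and pairs 10 and 46 held 0 beside 1546 and 1750 beside 4 counts.

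Of the 14 BMP ligands listed, 7 passed the count filter, and *Gdf6* had no count in any cell. *Bmp4* was in 28 cells with up to 77.9 TPM, *Bmp6* in 51 cells and *Bmp3* in 49. *Gdf15*, a stress-induced relative of the family, was in 62 cells with up to 303 TPM, and 8 of its pairs held fewer than 10 counts beside 1000 or more. *Bmp7* alone among them had a median above 1 TPM.

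*Tgfb1* (ENSMUSG00000002603, chromosome 7 from 25687002 to 25705077, plus strand), which encodes a TGF-beta ligand secreted in latent form, was counted in 78 cells (81.2%, interval 72% to 88.5%), its median count being 58.5 and its highest 2097. It was asymmetric in 41 of 48 pairs (85.4%, interval 72.2% to 93.9%), beside 40 for *Id1*, with a median ratio between daughters of 9.77, the largest of the 10 genes. *Tgfb2* (ENSMUSG00000039239, chromosome 1 from 186622792 to 186705989, minus strand) was in 27 cells (28.1%, interval 19.4% to 38.2%) with at most 1911 counts. Its exons overlap the antisense gene *Gm29491*, and since strand in counting is not stated, reads of the 2 genes cannot be told apart. *Tgfb3* was in 43 cells with up to 46.7 TPM, *Gdf11* in 56, and *Nodal* and *Mstn* in none of 96.

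Of the genes for holding TGF-beta latent and releasing it, some were in every cell and others in few. *Ltbp1*, a latent TGF-beta binding protein, had a median of 42.9 TPM, *Ltbp3* 24.8 and *Ltbp4* 14.2. *Itgav*, the integrin chain that with *Itgb6* or *Itgb8* frees the ligand, had 12.7 TPM in 96 cells, *Itgb6* was in 77 cells with a median of 0.791, and *Itgb8* in 1 cell. *Ltbp2* was counted in 2 cells, *Lrrc32* in 1 and *Nrros* in 7, each with a median of 0 TPM. *Ltbp1* had an intraclass correlation of 0.53 and a median ratio between sisters of 1.81, and *Itgav* 0.44 and 2.14.

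*Tgfbr1* (ENSMUSG00000007613, chromosome 4 from 47353222 to 47414931, plus strand), the type I receptor of TGF-beta, was counted in 94 cells (97.9%, interval 92.7% to 99.7%), its median count being 1434 and its highest 10665. In 44 pairs both daughters reached 10 counts. The widest gaps were in pair 11 with 0 and 3845 counts, pair 44 with 10 and 2656 and pair 14 with 11 and 3206. Its partner *Tgfbr2*, the type II receptor, was in all cells with a median of 46.2 TPM, 29 asymmetric pairs and a median ratio of 1.59. Of the BMP receptors, *Bmpr1a* had a median of 13.1 TPM (95 cells), *Bmpr2* 5.35 (95 cells) and *Bmpr1b* 4.85 (84 cells). The Wnt co-receptors *Lrp5* and *Lrp6* were counted in 88 and 94 cells. *Eng*, a co-receptor typical of endothelium, never had more than 1 read.

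The 250 bases before the start of *Tgfbr1* and of *Tgfb1* are shown because the levels of this receptor and its ligand are described above. Sequences are from RefSeq on GRCm38.p6, on the plus strand, with GGCGCC, a GC-rich Smad1/5-type motif searched on both strands, in capitals. It occurred in 9.59% of 32851 promoter windows. CAGAC, a Smad3-type motif also searched on both strands, occurred in 42.2% of them. The window of *Tgfbr1* at chr4:47352972-47353221 held 1 match to GGCGCC and none to CAGAC, and that of *Tgfb1* at chr7:25686752-25687001 held neither. A further *Tgfbr1* start listed in RefSeq, with its window at chr4:47385966-47386215, held 1 match to CAGAC and none to GGCGCC and is not printed.
Tgfbr1: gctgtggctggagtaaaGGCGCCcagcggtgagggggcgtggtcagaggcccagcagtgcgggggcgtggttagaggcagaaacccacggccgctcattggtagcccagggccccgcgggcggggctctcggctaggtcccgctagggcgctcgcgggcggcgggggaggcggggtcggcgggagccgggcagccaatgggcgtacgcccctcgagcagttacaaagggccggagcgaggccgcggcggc
Tgfb1: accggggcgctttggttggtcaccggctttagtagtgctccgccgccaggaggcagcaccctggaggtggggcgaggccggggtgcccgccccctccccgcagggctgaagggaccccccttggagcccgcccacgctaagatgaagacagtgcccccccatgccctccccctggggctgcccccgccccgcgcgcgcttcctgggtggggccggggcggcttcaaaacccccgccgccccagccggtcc

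*Smad7* (ENSMUSG00000025880, chromosome 18), the inhibitory Smad that both pathways induce, was in 33 cells (34.4%, interval 25.0% to 44.8%) with at most 1083 counts and 9.24 TPM. Both daughters had 10 or more counts in 7 pairs and a single daughter in 16. The other inhibitory Smad, *Smad6*, was in 26 cells. The signalling Smads were broad by comparison: *Smad4* had a median of 18.1 TPM, *Smad3* 16.0, *Smad2* 13.7, *Smad5* 5.99 and *Smad1* 4.93, each in 80 to 95 cells, while *Smad9* had a count in 1. The corepressor *Tgif1* was the highest of this list, with 93.6 TPM in all 96 cells and an intraclass correlation of 0.44.

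The *Id* genes encode inhibitors of basic helix-loop-helix factors and are direct BMP targets in many cells. *Id2* (ENSMUSG00000020644, chromosome 12 from 25093799 to 25097140, minus strand) ranged from 19 to 33132 counts, the median being 2951. *Id1* (ENSMUSG00000042745, chromosome 2 from 152736251 to 152737410, plus strand) was counted in 93 cells (median 1132, highest 12639). *Id3* (ENSMUSG00000007872, chromosome 4 from 136143497 to 136145755, plus strand) was counted in 64 cells (66.7%, interval 56.3% to 75.96%), its median count being 9 and its highest 4091.

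*Id1* and *Id3* were either near absent or well expressed. *Id1* was at 10 TPM or more in 70 cells, at 0 in 3 and between 0 and 1 in 19, leaving 4 cells between 1 and 10. *Id3* was at 10 TPM or more in 41 cells, at 0 in 32 and between 0 and 1 in 20, leaving 3 cells between 1 and 10. *Tgfb1*, by contrast, had 30 cells between 1 and 10 TPM.

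The near-absent and the well-expressing cells were in part sisters. *Id3* had 10 or more counts in both daughters of 13 pairs and in a single daughter of 21 pairs. In 8 pairs it was below 10 in a daughter and at 1000 or more in its sister, as in pair 24 with 0 and 4091 counts, pair 13 with 0 and 2897 and pair 31 with 0 and 2263. *Id1* had 5 such pairs, the widest being pair 47 with 4161 and 5 counts, and *Id2* none. In *Id2* the widest gaps were in pair 5 with 5195 and 19 counts and pair 25 with 26 and 7233. Over all 10 genes, 19 of 480 combinations of gene and pair were of this kind, in 15 pairs, and 100 had 10 or more counts in a single daughter. Such counts were not made over all genes, so whether they are usual for genes at these levels is not known.

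*Id1* was asymmetric in 40 of 48 pairs, *Id2* in 36 and *Id3* in 32, with median ratios of 4.06, 2.25 and 4.68. The 3 genes did not favour the same daughter: of 31 pairs asymmetric in both *Id1* and *Id2*, the same daughter was higher in 15, of 27 pairs for *Id1* and *Id3* in 13, and of 23 pairs for *Id2* and *Id3* in 13. Their rho over 96 cells was -0.10, 0.25 and -0.01 in the same order, with a mean of 0.05. Among the other targets listed, *Cdkn1a*, a cell cycle inhibitor, had a median of 123 TPM and an intraclass correlation of 0.51. *Id4* was in 35 cells and *Atoh8* in none.

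Across the 10 genes, 6 had a median ratio between daughters of 1.5 or more, where 78.4% of the 14463 genes did, and 1 had an intraclass correlation of 0.5 or more, where 4.4% did. The 10 genes had a median of 31.5 asymmetric pairs and a median intraclass correlation of 0.15, beside 33 and 0.11 for the 14463 genes. Of the 96 genes in the 7 pathway lists, 66 passed the filter, 53 of these had a median ratio of 1.5 or more, and 4, *Sostdc1*, *Ltbp1* and *Cdkn1a* among them, had an intraclass correlation of 0.5 or more. None of the 14 receptors or the 13 Smads and nuclear regulators that passed the filter did.

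**Figure D3:**
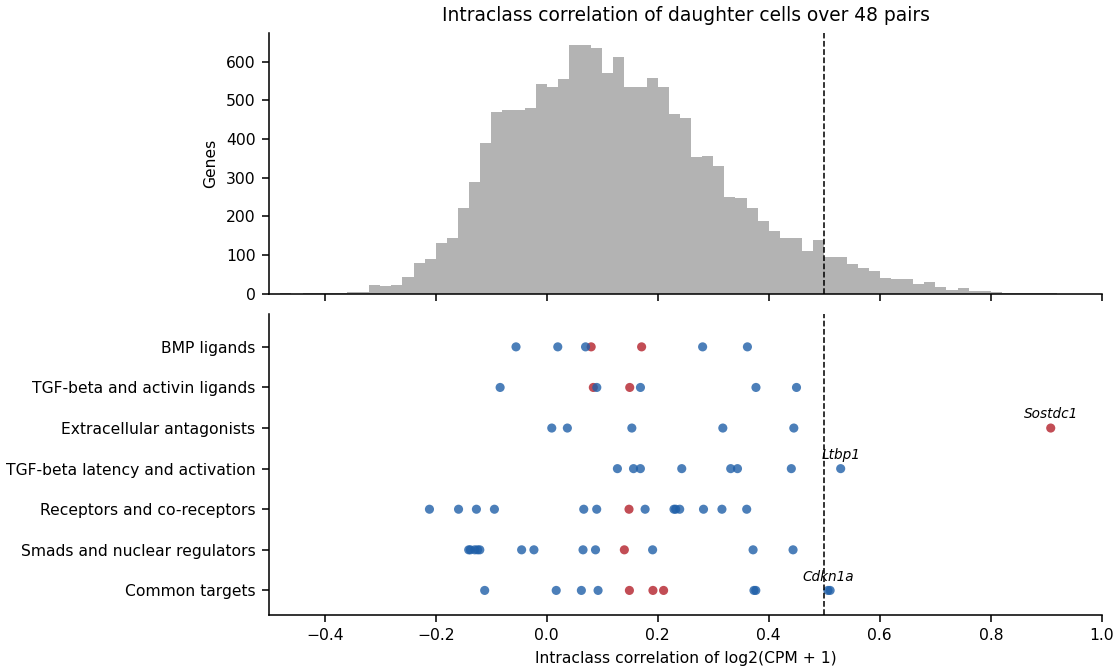
Intraclass correlation of log2(CPM + 1) over 48 pairs, as a histogram of 14463 genes (top) and as points for the 66 pathway genes past the filter by list (bottom, the 10 genes in red), with the 0.5 line dashed. *Sostdc1* lies at 0.91 and the other 9 red points between 0.08 and 0.21.

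The same spike-in mix was added to every cell, so ERCC transcripts carry no biological difference between daughters. The number of molecules of a rare ERCC transcript can still differ from cell to cell, which was not measured. Ratios of ERCC transcripts thus hold such differences together with loss. The 9 ERCC transcripts with a mean of 20 to 60 TPM were asymmetric in 32 to 40 pairs, and *Bmp7* (31 pairs) and *Id3* (32) lay at or below that range. These 9 had 0 to 11 pairs each with fewer than 10 counts beside 1000 or more, a range that held *Id3* (8) and *Bmp7* (1). The 13 with a mean of 5 to 20 TPM were asymmetric in 23 to 42 pairs, a range that held *Tgfb1* (41) and *Tgfbr1* (37), and up to 13 of their pairs had fewer than 10 counts beside 1000 or more. *Id1* (40 pairs) and *Id2* (36) lay above the 10 to 34 pairs of the 6 ERCC transcripts at 60 to 200 TPM, which had at most 2 pairs with fewer than 10 counts beside 1000 or more, against 5 for *Id1*. Most of these 6 had reads in every cell and so helped set the size factors, which holds their own ratios closer to 1. They are thus not an equal measure of loss for *Id1* and *Id2*. Genes past the count filter had a median of 29 asymmetric pairs at a mean of 1 to 5 TPM and 38 at 5 to 20. The median was 35 at 20 to 60 TPM and 29 at 60 to 200. *Sostdc1* (15 pairs, 30 at 0 in both daughters) had a mean of 5.15 TPM, and 1.65 without pair 19. It lay below the 23 pairs that bound the band of 5 to 20 TPM and within the 4 to 36 pairs of the 17 ERCC transcripts at 1 to 5 TPM. Whether a transcript missed in a daughter was absent from it or lost before amplification cannot be told apart for these genes.

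**Figure D4:**
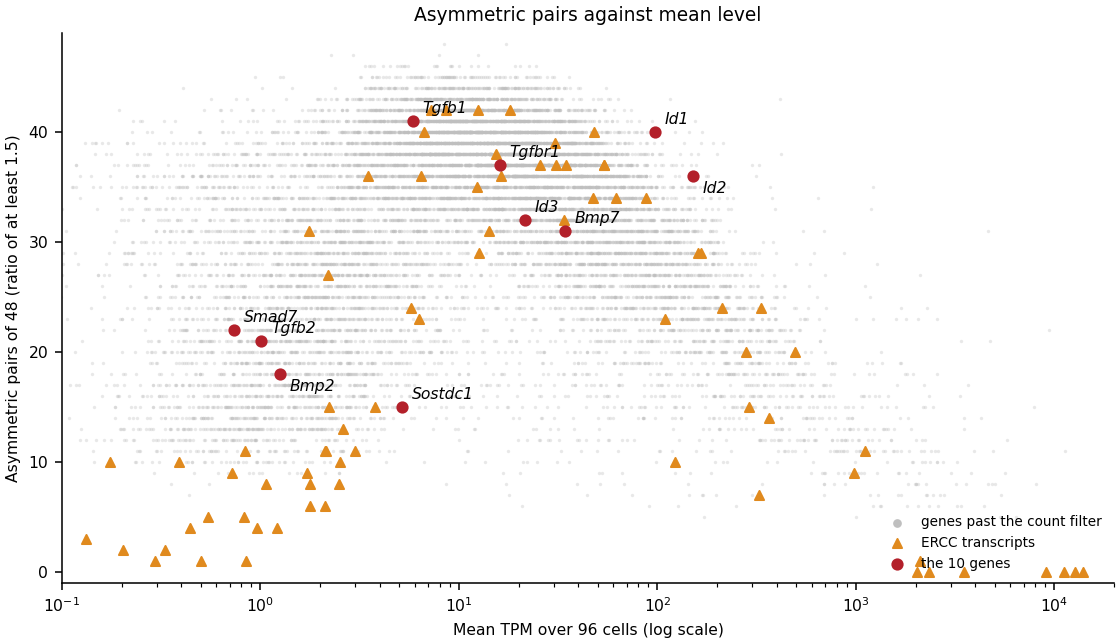
Number of the 48 pairs with a ratio of at least 1.5 against mean TPM over 96 cells (log axis) for 14463 genes (grey), ERCC transcripts with a mean of 0.1 TPM or more (triangles) and the 10 genes (red). *Id1* and *Id2* lie above the triangles near them.

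The 10 genes varied largely apart from each other. The 45 values of rho over 96 cells lay between -0.29 (*Id2* and *Bmp2*) and 0.25 (*Id1* and *Id3*), with a median of 0.01 and none at 0.3 or beyond. Between the means of the 48 pairs they lay between -0.31 and 0.40 (*Sostdc1* and *Bmp7*), and between the differences within pairs between -0.33 (*Sostdc1* and *Tgfb1*) and 0.18. *Id2* and *Tgfb1* stood at -0.32 within pairs, and of the 31 pairs asymmetric in both, *Tgfb1* was higher in the daughter with lower *Id2* in 22. Over the 45 combinations, the same daughter was higher for both genes in 23.1% to 71.4% of such pairs, with a median of 48.4%. These values describe cells that share libraries and depth, over counts that are sparse for 4 of the genes.

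**Figure D5:**
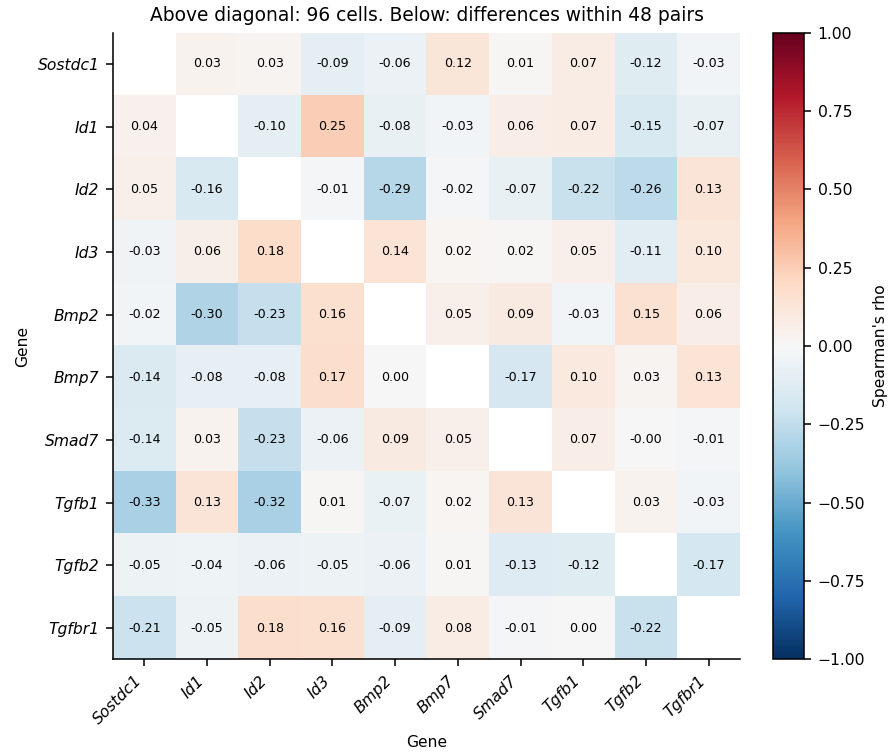
Spearman's rho of log2(CPM + 1) between the 10 genes, over 96 cells above the diagonal and over the differences within 48 pairs below it. Values over cells lie between -0.29 and 0.25.

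Against gene lists of cell state, *Id2* went with 7 enzyme and surface genes of the olfactory and airway epithelium (*Adh7*, *Aqp4*, *Ces1d*, *Lypd2*, *Tmprss11d*, *Aldh3a1* and *Cyp2f2*), with a rho of 0.38 over cells, 0.44 over pair means and 0.30 within pairs. *Id2* also went with the ERCC share of a cell (0.37 over cells, -0.02 within pairs). *Sostdc1* had a rho with the same list of 0.30 over cells, 0.40 over pair means and -0.29 within pairs. *Id3* had a rho of 0.34 over cells with 9 squamous differentiation genes and 0.34 with 4 wound-response keratins, and 0.24 and 0.11 within pairs. *Bmp2* went with the number of genes detected (0.36) and against the ERCC share (-0.39). With 8 proliferation genes the 10 genes had a rho between -0.11 (*Sostdc1*) and 0.24 (*Bmp7*).

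The genes with the pattern most like *Sostdc1* over 96 cells were *Zfp341* (rho 0.42), *Vcp* (0.40), *Trim47* (0.39), *Chd9* (0.39), *Ccl20* (0.39), *Slc39a9* (0.38), *St6galnac2* (0.38), *Bin1* (0.38), *Efemp1* (0.37) and *Pcyox1* (0.37), and those most opposed were *Rab1a* (-0.43), *AC160138.1* (-0.39), *Cd44* (-0.36), *Eif1* (-0.34) and *Tbc1d2b* (-0.34). For *Sostdc1*, 72 of 96 cells were at 0, and the genes named for the other 9 had a rho between 0.37 and 0.44. Among the 3 nearest to *Id2* were *Uqcc2* (0.44) and *Fetub* (0.41). The nearest were *Gm49911* for *Id1* (0.37), *Cyp20a1* for *Id3* (0.38), *Sema3c* for *Bmp2* (0.44), *Slc38a2* for *Bmp7* (0.41), *Gm38431* for *Smad7* (0.39), *Wdhd1* for *Tgfb1* (0.43), *Pakap* for *Tgfb2* (0.41) and *Coa5* for *Tgfbr1* (0.43).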

How the data were processed

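The authors deposited unnormalized whole-number counts for every gene and 96 tables of TPM, made by trimming with Trimmomatic 0.39, aligning to GRCm38 and ERCC sequences with STAR 2.7.11a, and counting with StringTie 2.2.1, per the submitters' processing notes. The TPM scaling includes ERCC transcripts. All 10 gene spans equal those of GENCODE M21, the annotation used here. The genes, the lists and the rule for naming genes were chosen with earlier results of these data known. Named are the 10 genes, the 10 highest and 5 lowest correlated with *Sostdc1*, the 3 highest for each other gene (the first alone is printed for 8 of them), and genes of the pathway lists with the highest or lowest level or intraclass correlation. *Gdf15*, *Tgfb3*, *Lrp5*, *Lrp6* and other pathway genes were added with their values in view. Some genes within these rules are not reported here.

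Each cell's size factor was a median ratio, taken from those ERCC transcripts (22 of 92) with reads in every cell, and ranged from 0.378 to 1.89. Ratios between daughters used a pseudocount of 1 and a cutoff of 1.5. Intraclass correlations (one-way, 48 pairs) and Spearman correlations used log2(CPM + 1), where CPM is computed here from the deposited counts. Comparisons with all genes used the 14463 that reached 10 counts in 10% of cells. Differences within pairs were entered in both orders. Python 3.11.15, numpy 2.4.6, pandas 2.3.3, scipy 1.17.1 and matplotlib 3.10.9 were used. The calculations were tested on simulated data. The 96 cells are 1 sample, so no test and no p-value was computed. The 12 sets of 8 cells come from names of the deposited data, and whether a set was handled together is not stated. The authors' grouping of cells into activated and renewed HBCs was not used here, since the labels do not give it. Alternatives were other scalings, pseudocounts, cutoffs and filters, centring on the set, and leaving out each set.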

Additional observations from a re-analysis of the deposited data

How the results depend on the processing

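The 96 cells are 1 sample, so a value was held to have moved where it left its 95% interval (cells, pairs), changed by 0.1 (correlations) or changed by 1.5 times (counts of genes). For *Sostdc1*, the number of cells with it was 12 at 10 or more counts and 12 at 1 TPM or more, and its asymmetric pairs (15) were 5 on TPM, 9 with a pseudocount of 10 and, chosen after seeing the data, 6 where the higher daughter had 10 or more counts. Its intraclass correlation was 0.76 on ERCC-scaled counts and 0.75 on counts scaled by the median of ratios over genes. Leaving out each set of 8 cells gave 0.84 to 0.94, and leaving out pairs 19, 27, 39 and 43, also chosen after seeing the data, gave -0.033. The cause was not tested for the scalings, on which the pseudocount also weighs differently. The value of -0.033 follows from removing the pairs with the gene in both daughters. Leaving out each set kept the number of genes at 0.5 or above at 1, the median rho of *Sostdc1* with the other genes between -0.02 and 0.03, and the mean rho of the *Id* genes between 0.01 and 0.08. The other 81 values for these results stayed within these limits, the 9 included. After centring on the set, the intraclass correlations of the 9 other genes lay between -0.19 and 0.09. Centring on a set of 8 cells removes part of the variance between pairs in any gene, and so lowers these values by itself. The values of all genes after centring were not computed. Without the count filter, 2.61% of genes had an intraclass correlation of 0.5 or more and 37.1% a median ratio of 1.5 or more. No paired analysis was possible because there is 1 group, so that no replicates pair across groups; sisters were compared within pairs throughout. Without molecular identifiers, depth limits what can be said of counts under 10.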

Other observations

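Several gene lists of cell state had members with high agreement between daughter cells. Over all 14463 genes 4.4% had an intraclass correlation of 0.5 or more. Of 8 proliferation genes, 7 did, with a median over the list of 0.62. All 7 enzyme and surface genes did (median 0.71), as did 5 of 9 squamous differentiation genes (median 0.61), among them *Sprr2a1* with 0.85 and *Sprr2a2* with 0.86; these near-identical genes share reads and are uncertain. None of the 4 wound-response keratins did (median 0.33). In the pathway lists 4 of 66 genes did. The difference between the lists was not tested, and the lists differ in level.

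By Pearson's r on log2(CPM + 1), which weighs the 4 pairs with high *Sostdc1* most, the closest gene over 96 cells was *Abca4*, with 0.59. It was chosen after its value was seen.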
